A study of Mus musculus with 10 samples.

Results

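The interferon-induced genes and the immunoproteasome were taken as a set of 42 genes given by name. The set was chosen with earlier results of these data known. A probeset belonged to the set where its annotation gave exactly 1 gene symbol and that symbol was 1 of the 42. Of the 42 genes, 37 were matched in this way, among 12393 genes with such a probeset, by 48 of the 22626 probesets on the arrays. Testing was limited to probesets whose mean log2 intensity in either strain exceeded the log2 of 20. These were 35 probesets of 29 members among 11412 probesets of 7361 genes. Gbp3 and Usp18 passed this minimum only through the value of 1 CBA mouse. The 8 matched members that stayed below the minimum were Stat2, Oasl2, Adar, Ifit1, Ifit2, Ifit3, Mx1 and Cxcl10. Ddx58, Isg15, Psme2, Ifi44 and Xaf1 had no probeset with that single symbol and were not analysed here.

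The glands came from 5 QSi5 mice and 5 CBA mice at lactation day 9 of a first lactation, when weaning was forced. QSi5 is an inbred line of Quackenbush-Swiss origin whose breeding favoured large and frequent litters, and CBA (CBA/CaH) is an inbred strain without that selection. The labels name no drug, infection or genetic alteration for either group, and strain is the only contrast that they give. They do not state the health of any mouse. RNA from the inguinal mammary gland of each mouse was hybridised to 1 Affymetrix array, MOE430 2.0 for 3 mice and MOE430A 2.0 for 2 mice of each strain, and array medians lay between 4.21 and 4.30 on the log2 scale. All values are log2 intensities, differences are QSi5 minus CBA on that scale, and a gene with several tested probesets is given by the brightest. Genes were called at a Benjamini-Hochberg adjusted p under 0.05 over all 11412 probesets in limma. The milk protein gene Csn2 lay between 13.76 and 13.97 and Wap between 14.12 and 14.26 over all 10 mice. Such bright probesets may be saturated, so these values show that milk protein RNA was abundant in every gland and not that its level was alike. The RNA is of whole tissue, so that fewer cells of a type and less RNA per cell cannot be told apart.

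Interferons are secreted proteins that signal through cell surface receptors and JAK kinases to STAT and IRF transcription factors. Type I interferons act through a complex with IRF9 that binds the interferon-stimulated response element (ISRE), and interferon gamma acts through the gamma-activated site (GAS) and through IRF1. The target genes encode sensors of foreign nucleic acid, antiviral proteins, GTPases that act on the vacuoles of intracellular pathogens, and the immunoproteasome, a form of the proteasome with exchanged catalytic subunits that cuts peptides for display on MHC class I.

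Stretches of the promoters of 7 members are shown because these genes carry the results below: 5 GTPase genes, Psmb8 of the immunoproteasome, and Plscr1. Each is the 100 bases before a RefSeq start of the gene on build GRCm38.p6, read 5′ to 3′ along the strand of the gene. For any gene with several starts, the promoter with the most ISRE and GAS matches was taken. Capitals mark, on either strand, matches to the ISRE core (GAAA and GAAA with 2 bases of any kind between them) or to the GAS letters (TTC and GAA with 3 bases of any kind between them), and overlapping matches run together.
Gbp2 (chr3:142620563-142620662, plus strand): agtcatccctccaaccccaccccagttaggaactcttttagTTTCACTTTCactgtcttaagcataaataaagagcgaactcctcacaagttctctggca
Gbp3 (chr3:142559944-142560043, plus strand): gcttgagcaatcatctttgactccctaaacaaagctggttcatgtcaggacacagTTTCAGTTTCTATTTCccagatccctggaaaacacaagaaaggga
Igtp (chr11:58199456-58199555, plus strand): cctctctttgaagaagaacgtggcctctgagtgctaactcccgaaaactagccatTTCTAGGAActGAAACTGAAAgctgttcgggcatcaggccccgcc
Irgm1 (chr11:48871421-48871520, minus strand): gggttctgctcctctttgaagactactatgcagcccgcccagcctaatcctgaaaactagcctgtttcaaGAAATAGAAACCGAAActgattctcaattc
Irgm2 (chr11:58214877-58214976, plus strand): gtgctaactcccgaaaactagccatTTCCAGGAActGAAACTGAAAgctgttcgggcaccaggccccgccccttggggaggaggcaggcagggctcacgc
Psmb8 (chr17:34198095-34198194, plus strand): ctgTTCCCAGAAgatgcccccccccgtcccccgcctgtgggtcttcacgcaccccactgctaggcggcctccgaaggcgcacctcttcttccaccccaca
Plscr1 (chr9:92250094-92250193, plus strand): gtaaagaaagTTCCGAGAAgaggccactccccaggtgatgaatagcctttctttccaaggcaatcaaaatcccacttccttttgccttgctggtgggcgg

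The 5 GTPase promoters each held an ISRE core match, which began 30 to 64 bases before the start. In Igtp and Irgm2 a GAS match lay beside it, beginning 45 and 75 bases before the start. Psmb8 and Plscr1 held a GAS match alone, beginning 97 and 90 bases before the start. Over windows of 300 bases, from 250 before to 50 after the start, 3.44% of 32851 promoters held the ISRE core, and 18 of 42 promoters of members did (42.9%). The GAS letters stood in 8.3% of all promoters and in 12 of the 42 promoters of members (28.6%). A match is a description of the letters. The 42 promoters belong to 35 members, and Zbp1, Mx1, Mx2, Usp18, Iigp1, Parp14 and Rtp4 had no promoter in the table used.

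The largest contrast within the set lay between 1 CBA mouse and the other 9 mice rather than between the strains. CBA replicate 3 had the highest level of all 10 mice in 24 of 29 members (82.8%), against 19.5% of all 7361 genes tested. In 13 members (44.8%) it lay more than 2-fold above every other mouse, whereas 45 genes in all (0.611%) did so, and 13 of those 45 were members. The 24 include Gbp3 and Usp18, and the 13 include Gbp3. These genes passed the minimum only through this mouse, so a high level in it was a condition of their being tested. The median member lay 1.27 above its 10-mouse median in this mouse, and between -0.10 and 0.04 from it in each of the other 9 mice. The 5 members in which another mouse was highest were Irf9, Mx2, Ifitm3, Ifi35 and Plscr1. No group can be made of 1 mouse, and these values are a description with no test.

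**Figure D1:**
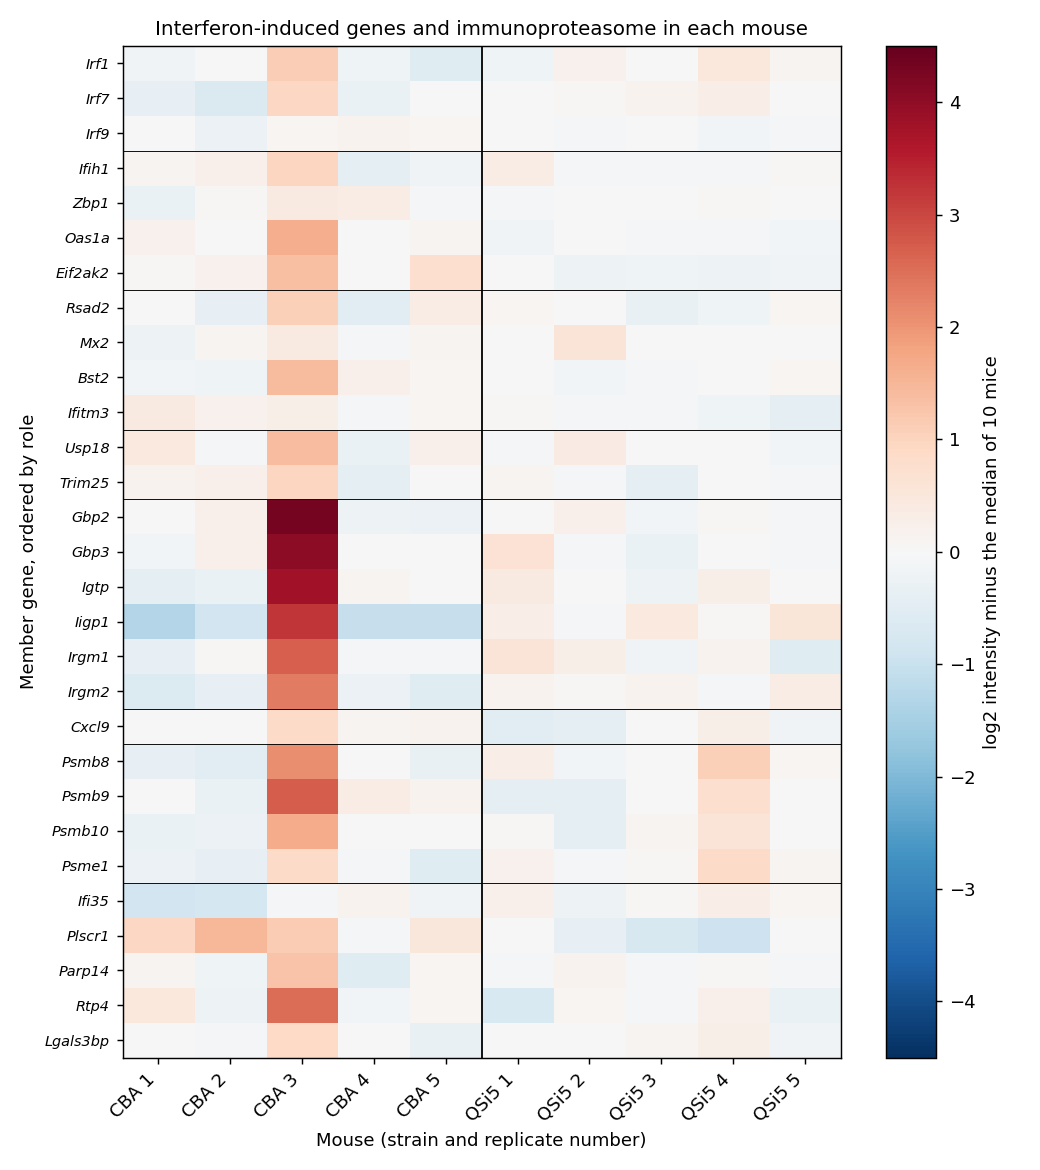
Level of the 29 tested members in each of the 10 mice. Rows are genes in the order of their roles, with thin lines between roles, columns are mice with CBA on the left and QSi5 on the right, and colour is the log2 intensity minus the median of all 10 mice. The column of CBA replicate 3 stands out in red, most of all in the GTPases, where Gbp2 lay 4.31 above its median, while Irf9 and Ifitm3 show little colour there.

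The spread within strains followed this mouse. The median SD of members was 0.627 within CBA and 0.201 within QSi5, beside 0.217 and 0.189 over all genes. The SD of CBA exceeded that of QSi5 in 28 of 29 members (96.6%), against 59.6% of all genes. The gap between the most extreme mouse and its neighbour was over 0.71 of the range of the strain, Dixon's critical value for 5 samples, in 14 members within CBA, against 6.09% of all genes, and in each it was CBA replicate 3 that stood above. Gbp3 and Usp18 passed the minimum only through this mouse. Both are among the 28 and Gbp3 is among the 14, so a high level in this mouse was a condition of their being counted. Without CBA replicate 3 the median SD of members within CBA was 0.226, beside 0.186 over all genes. CBA replicate 2 and QSi5 replicates 1 and 2 were measured on the same MOE430A 2.0 type as this mouse, and their median members lay between -0.10 and 0.02 from the 10-mouse medians.

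Between the strains, 1 of 29 members was called in limma, Plscr1, which was lower in QSi5 mice. The background was 2.7% of all genes tested, with 1.39% called lower. By probesets, 2 of 35 were called, both of Plscr1, against 2.94% of all 11412 (1.44% above and 1.51% below CBA). The median difference of members was -0.19, with 21 members below 0 and 8 above, beside a median of 0.0038 and 49.1% below 0 over all genes. The 21 include Gbp3 and Usp18, which passed the minimum only through CBA replicate 3. Without CBA replicate 3 the median of members was 0.08, with 12 below 0 and 17 above, beside 49.9% of all genes below 0. Unadjusted p under 0.05 was reached by 3 members with all 10 mice, against 14.9% of genes, and by 9 members without CBA replicate 3, against 13% of genes. That mouse was singled out for its levels in the members themselves, so the figures without it are a description.

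**Figure D2:**
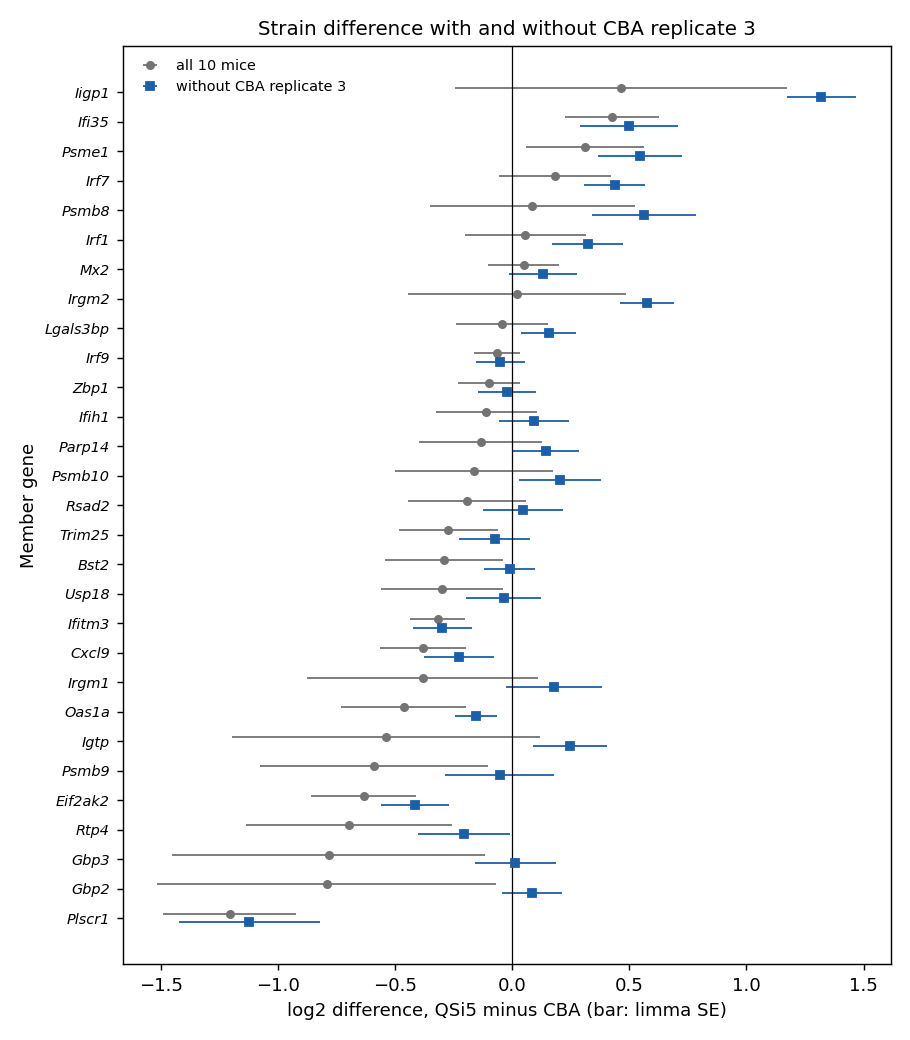
Strain difference of each tested member, QSi5 minus CBA on the log2 scale, from all 10 mice (grey circles) and without CBA replicate 3 (blue squares), with limma's SE as bars. Iigp1 moves from 0.46 to 1.32 and its SE from 0.71 to 0.15, while Plscr1 stays near -1.2 and -1.1.

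The interferon-induced GTPases held the widest values. Their summed unlogged intensity was 6363 in CBA replicate 3, against 342 to 437 in the other 4 CBA mice and 630 to 800 in QSi5 mice, and all 6 were highest in that mouse. Gbp2 and Gbp3 are guanylate-binding proteins, which coat and disrupt vacuoles that hold pathogens. Gbp2 was at 4.80, 5.06, 9.13, 4.60 and 4.57 in CBA replicates 1 to 5 and at 4.85, 5.06, 4.69, 4.86 and 4.73 in QSi5 replicates 1 to 5. CBA replicate 3 lay 21.6-fold above the median of the other CBA mice, which overlapped the QSi5 mice. The brightest Gbp2 probeset is of the type whose probes may match related transcripts, and the other Gbp2 probeset gave 8.96 in CBA replicate 3 and 3.90 to 4.95 in the remaining mice. Gbp3 stood at 3.83, 4.21, 7.98, 3.96 and 3.99 in CBA mice and at 4.60, 3.93, 3.66, 3.99 and 3.88 in QSi5 mice, so that only CBA replicate 3 was clear of the low range.

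Igtp, Irgm1, Irgm2 and Iigp1 are immunity-related GTPases, a family induced by interferon gamma. Igtp was at 6.34, 6.51, 10.56, 6.91 and 6.77 in CBA mice and at 7.20, 6.80, 6.56, 7.05 and 6.78 in QSi5 mice, with CBA replicate 3 at 15.2-fold the median of the other CBA mice. Irgm1, which regulates the other family members on host membranes, was at 5.02, 5.46, 8.09, 5.34 and 5.32 in CBA mice and at 5.99, 5.66, 5.26, 5.57 and 4.84 in QSi5 mice. For both genes the remaining CBA mice overlapped the QSi5 mice. The strain differences with all 10 mice were -0.54 (SE 0.66) for Igtp, -0.38 (SE 0.49) for Irgm1, -0.79 (SE 0.72) for Gbp2 and -0.78 (SE 0.67) for Gbp3, and none was called in limma (adjusted p from 0.643 to 0.777).

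Iigp1 is an effector GTPase that is loaded onto parasite vacuoles. It was at 7.22, 7.69, 11.76, 7.51 and 7.53 in CBA mice and at 8.84, 8.50, 8.98, 8.61 and 9.10 in QSi5 mice. Every QSi5 mouse lay above the 4 other CBA mice and below CBA replicate 3. With all mice the difference was 0.46 (SE 0.71, adjusted p = 0.816 in limma). Without CBA replicate 3 it was 1.32 (SE 0.15), or 2.50-fold, with an adjusted p of 0.00046 in limma, and Iigp1 was called higher in QSi5 mice. That mouse was set aside for its levels in these same genes. Adjusted p-values and calls without it, here and below, thus describe the remaining mice and are no independent test. Its other probeset gave 1.05 (SE 0.22, adjusted p = 0.0306 in limma) without that mouse. On the 6 MOE430 2.0 arrays alone, none of which was of CBA replicate 3, the difference was 1.48 (adjusted p = 0.0048 in limma), and on the 4 MOE430A 2.0 arrays, which include it, it was -1.06.

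For Irgm2 the QSi5 mice again lay between 4 CBA mice and CBA replicate 3, over a smaller range. It was at 5.21, 5.46, 8.15, 5.55 and 5.25 in CBA mice and at 5.97, 5.87, 5.98, 5.76 and 6.14 in QSi5 mice. The lowest QSi5 mouse, at 5.76, lay above the 4 at 5.21 to 5.55. The difference was 0.02 (SE 0.47) with all mice and 0.58 (SE 0.11) without CBA replicate 3, with an adjusted p of 0.0215 in limma. Iigp1 and Irgm2 were the 2 members called without that mouse, against 2.4% of all genes, with 1.22% called higher and 1.18% lower in QSi5 mice. The strains did not overlap without it in 5 members, Irf7, Eif2ak2, Iigp1, Irgm2 and Psme1, against 6.52% of all genes.

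**Figure D3:**
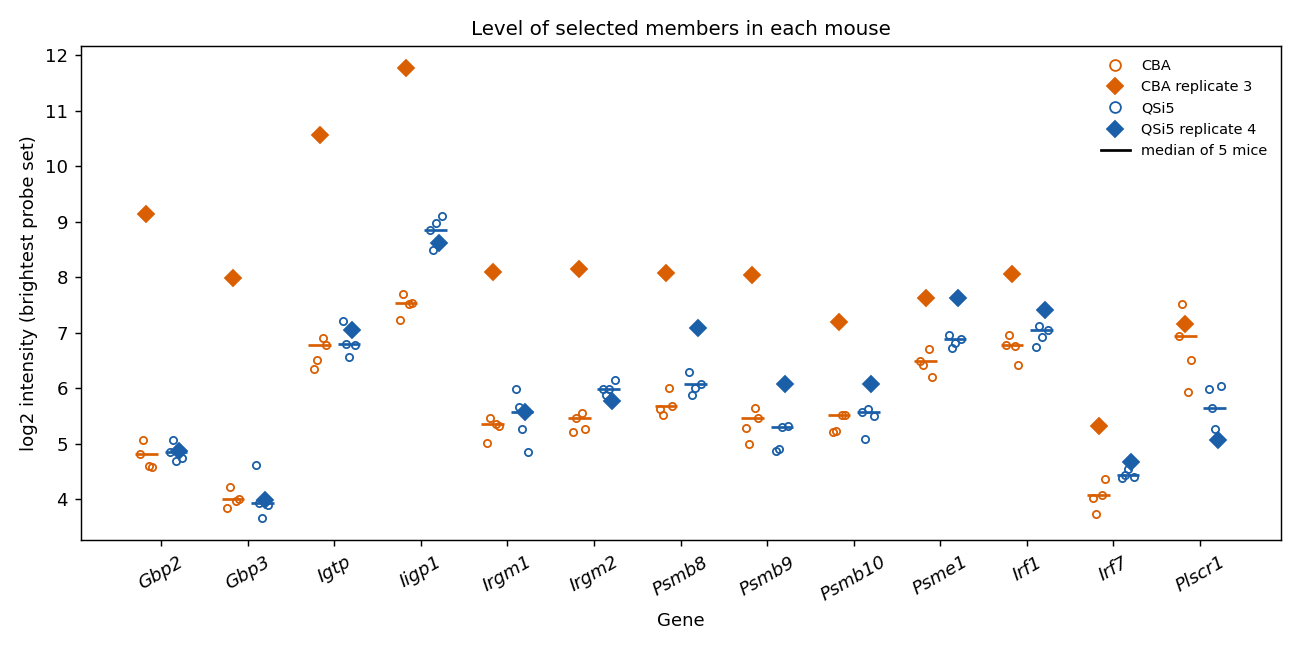
Log2 intensity of 13 members in each mouse, with CBA in orange, QSi5 in blue and short lines at the median of each strain. Filled diamonds are CBA replicate 3 and QSi5 replicate 4. For Iigp1 the QSi5 mice lie from 8.50 to 9.10 between the 4 lower CBA mice and CBA replicate 3 at 11.76, and for the immunoproteasome genes QSi5 replicate 4 is the highest QSi5 mouse.

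The immunoproteasome members came next in size. Psmb8, Psmb9 and Psmb10 encode the inducible catalytic subunits, and Psme1 encodes a subunit of the PA28 activator, which opens the proteasome core. All 4 were highest in CBA replicate 3, and QSi5 replicate 4 was the highest QSi5 mouse in each. Their summed unlogged intensity was 876 in CBA replicate 3, 467 in QSi5 replicate 4, and from 200 to 280 over the remaining 8 mice.

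Psmb8 was at 5.61, 5.51, 8.08, 6.0 and 5.67 in CBA mice and at 6.28, 5.88, 5.99, 7.08 and 6.08 in QSi5 mice. Psmb9 was at 5.28, 5.0, 8.03, 5.64 and 5.45 in CBA mice and at 4.87, 4.90, 5.29, 6.07 and 5.31 in QSi5 mice. In both genes the same single mouse of each strain stood above its strain, and the remaining mice of both strains overlapped. Psmb10 was at 5.21, 5.23, 7.19, 5.51 and 5.51 in CBA mice and at 5.57, 5.08, 5.61, 6.07 and 5.50 in QSi5 mice, a narrower range with the same 2 mice on top. Psme1 was at 6.49, 6.41, 7.62, 6.71 and 6.21 in CBA mice and at 6.97, 6.73, 6.81, 7.62 and 6.88 in QSi5 mice. Its levels in CBA replicate 3 and QSi5 replicate 4 were thus alike, and every QSi5 mouse lay above the 4 other CBA mice.

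None of the 4 was called in limma. The differences were 0.09 for Psmb8 (SE 0.44, adjusted p = 0.953), -0.59 for Psmb9 (SE 0.49, adjusted p = 0.63), -0.16 for Psmb10 (SE 0.34, adjusted p = 0.873) and 0.31 for Psme1 (SE 0.25, adjusted p = 0.623). Without CBA replicate 3 they were 0.56, -0.05, 0.20 and 0.55, with limma adjusted p from 0.183 to 0.965. The catalytic subunits that these replace in the standard proteasome varied less. Psmb5 ranged from 7.33 to 8.20, Psmb6 from 7.45 to 8.32 and Psmb7 from 8.48 to 9.19 over all 10 mice, and of the 6 genes listed as constitutive counterparts none was called. CBA replicate 3 was the highest mouse in 3 of these 6.

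Among the transcription factors, Irf1 and Irf7 shared the pattern and Irf9 did not. Irf1, which drives the second wave of interferon gamma targets, was at 6.78, 6.96, 8.06, 6.76 and 6.41 in CBA mice and at 6.75, 7.12, 6.92, 7.41 and 7.05 in QSi5 mice. Irf7, which amplifies type I interferon production, was at 4.01, 3.74, 5.32, 4.08 and 4.36 in CBA mice and at 4.38, 4.44, 4.53, 4.67 and 4.40 in QSi5 mice. CBA replicate 3 was 2.44-fold above the median of the other CBA mice for Irf1. For Irf7 that median lay below the minimum of 20, unlogged, and no fold is given. In both genes CBA replicate 3 was the highest mouse and QSi5 replicate 4 was the highest QSi5 mouse. For Irf7 the QSi5 mice lay just above the 4 other CBA mice, a difference of 0.44 (SE 0.13, adjusted p = 0.132 in limma) without CBA replicate 3. Irf9, the DNA-binding part of the type I complex, was at 5.59, 5.30, 5.64, 5.71 and 5.65 in CBA mice and at 5.54, 5.48, 5.59, 5.45 and 5.50 in QSi5 mice. All 10 mice thus lay close together, and the difference was -0.07 (95% confidence interval -0.28 to 0.15). Stat2 lay below the minimum on both of its probesets, the brighter ranging from 3.16 to 3.76.

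Of the sensors and effector enzymes, 4 were tested, and all were highest in CBA replicate 3. Ifih1, the sensor of long double-stranded RNA also called MDA5, was at 5.81, 5.91, 6.64, 5.25 and 5.51 in CBA mice and at 6.01, 5.59, 5.62, 5.61 and 5.76 in QSi5 mice, which overlapped. Oas1a, which makes the activator of RNase L, was at 7.24 in CBA replicate 3, 5.61 to 5.79 in the other CBA mice and 5.46 to 5.62 in QSi5 mice. Eif2ak2, the kinase PKR that halts translation on double-stranded RNA, was the single member whose strains did not overlap on the brightest probeset with all 10 mice, against 5.14% of all genes. It was at 4.90, 5.05, 6.22, 4.90 and 5.60 in CBA mice and at 4.83, 4.64, 4.67, 4.64 and 4.72 in QSi5 mice. The strains were separated by little at their nearest mice, and the difference of -0.63 (SE 0.22, adjusted p = 0.19 in limma) was not called. Without CBA replicate 3 it was -0.41 (SE 0.15, adjusted p = 0.215 in limma). Zbp1, a sensor of Z-form nucleic acid, ranged from 5.23 to 5.92.

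The antiviral effectors were split. Rsad2 (viperin), whose product inhibits viral polymerases, reached 6.87 in CBA replicate 3 and 5.31 to 6.13 in the remaining mice, although a second tested probeset for it ranged from 5.47 to 5.81 with no such mouse. Bst2 (tetherin), which holds budding virus at the cell surface, was at 6.73 in CBA replicate 3, 5.13 to 5.53 in the other CBA mice and 5.21 to 5.42 in QSi5 mice. Ifitm3 is a membrane protein that blocks virus entry. It was at 8.16, 7.94, 8.01, 7.71 and 7.82 in CBA mice and at 7.79, 7.70, 7.67, 7.55 and 7.35 in QSi5 mice, so that CBA replicate 3 was within the range of its strain. The strains met at 7.71 to 7.79, and the difference was -0.32 (SE 0.12, adjusted p = 0.216 in limma). Mx2, a dynamin-like GTPase, ranged from 4.81 to 5.61 and was highest in QSi5 replicate 2.

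Of the ISG15 system, Usp18 removes ISG15 from proteins and dampens type I signalling, and Trim25 is the ubiquitin ligase that activates the RNA sensor RIG-I. Usp18 was at 5.45 in CBA replicate 3, 3.77 to 4.49 in the other CBA mice and 3.94 to 4.44 in QSi5 mice. Trim25 was at 7.33, 7.39, 8.16, 6.79 and 7.17 in CBA mice and at 7.30, 7.12, 6.74, 7.20 and 7.11 in QSi5 mice. In both genes the strains overlapped once that mouse was set aside. Cxcl9, a chemokine that draws activated T cells, was at 5.44, 5.39, 6.27, 5.55 and 5.60 in CBA mice and at 4.96, 5.02, 5.40, 5.68 and 5.28 in QSi5 mice, and the strains differed by -0.38 (SE 0.19, adjusted p = 0.363 in limma).

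Plscr1, phospholipid scramblase 1, moves lipids between membrane leaflets and is induced by interferon. It was at 6.93, 7.51, 7.15, 5.93 and 6.50 in CBA mice and at 5.98, 5.64, 5.27, 5.06 and 6.04 in QSi5 mice. CBA replicate 3 was not its highest mouse, and only CBA replicate 4 reached the QSi5 range. The difference was -1.21 (SE 0.28, adjusted p = 0.0403 in limma), a 2.31-fold lower level in QSi5 mice. On the second probeset the CBA mice were at 7.17, 6.85, 6.56, 6.06 and 6.69 and the QSi5 mice at 5.91, 4.82, 5.43, 5.77 and 6.04, with no overlap and a difference of -1.07 (SE 0.25, adjusted p = 0.0362 in limma). The call was lost without any 1 of the mice except CBA replicate 4, with adjusted p from 0.0502 to 0.118, and without CBA replicate 3 the difference was -1.12 (adjusted p = 0.0871 in limma).

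The remaining interferon-induced members did not move as a block. Ifi35, a partner of Nmi in interferon responses, was at 6.04, 6.11, 6.86, 7.07 and 6.77 in CBA mice and at 7.14, 6.70, 6.96, 7.21 and 6.98 in QSi5 mice. It was lowest in CBA replicates 1 and 2, and the difference was 0.43 (SE 0.20, adjusted p = 0.343 in limma). Rtp4, an interferon-induced protein that takes part in receptor trafficking, was at 6.46, 5.75, 8.48, 5.86 and 6.08 in CBA mice and at 5.30, 6.05, 5.90, 6.21 and 5.68 in QSi5 mice. It lay 5.73-fold above the median of the other CBA mice in CBA replicate 3, and the difference was -0.70 (SE 0.44, adjusted p = 0.51 in limma). Parp14, an ADP-ribosyltransferase, was at 6.69 in that mouse and 4.88 to 5.59 in the others, and Lgals3bp, a secreted glycoprotein, at 7.01 and 5.79 to 6.41.

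Of the members below the minimum, 3 were also set apart in CBA replicate 3. Ifit1, which binds viral RNA lacking a host cap, was at 5.39 there and at 2.71 to 3.15 elsewhere. Oasl2 was at 4.87 and 2.51 to 3.03, and Ifit3 at 5.38 and 3.19 to 3.98. The probesets of the remaining 5 members ranged from 2.56 to 4.57 over all mice, as for Mx1 at 2.96 to 3.24, Ifit2 at 2.56 to 3.12 and Cxcl10 at 2.71 to 3.22.

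Where members held an ISRE core in the promoter window, CBA replicate 3 lay a median of 1.49 above the median of the other CBA mice (12 tested members, range 0.13 to 4.43). Without it the median was 0.93 (11 tested members, range 0.02 to 2.67). The ranges overlapped over most of their length. The 12 include Gbp3, which passed the minimum only through this mouse, so a high level in it was a condition of Gbp3 being counted. Stat2, Ifit1, Ifit3 and Cxcl10 also held the core but stayed below the minimum and are not among the 12. The values are a description and no contrast between kinds of promoter was tested.

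The wider interferon pathway was read from 7 lists of genes that are not members, of which 60 were tested. The ligands were low, with 2 of 11 listed genes above the minimum. Ifna1 ranged from 4.99 to 6.01 and Ifna9 from 5.05 to 5.71, and CBA replicate 3 was not the highest mouse in either. Of 7 receptors and kinases none was called, and the largest difference was that of Ifngr2, a chain of the interferon gamma receptor, at 0.45 (SE 0.14, adjusted p = 0.132 in limma). Jak1, a kinase of both receptor types, differed by 0.25 (SE 0.16). CBA replicate 3 was highest in 1 of these 7 genes.

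Downstream, none of 9 STATs, IRFs and regulators and none of 9 sensing genes was called in limma. Ptpn2, a phosphatase of JAK and STAT proteins, differed by -0.46 (SE 0.20), Stat3 by -0.44 (SE 0.37), the kinase gene Tbk1 by 0.32 (SE 0.13) and the adaptor gene Sting1 by -0.22 (SE 0.19). Stat3 was highest in CBA replicate 1, at 9.46, and stood at 7.92 in CBA replicate 3. Of 7 genes that load peptides onto MHC class I, 5 were highest in CBA replicate 3. The transporter genes Tap1 and Tap2 were there at 6.86 and 7.18, against 4.34 to 5.14 and 5.65 to 6.16 in the remaining mice, and B2m, the light chain of MHC class I, at 11.19 against 9.52 to 10.19. None of the 7 was called in limma with all mice, Calr (-0.61, SE 0.19) and Pdia3 (-0.53, SE 0.20) included. Tapbp, which tethers MHC class I to the transporter, was called higher in QSi5 mice without CBA replicate 3 (0.59, SE 0.13, adjusted p = 0.0375 in limma).

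Of 20 further interferon-induced genes, 2 were called higher and 1 lower in QSi5 mice, against 1.32% and 1.39% of all genes. CBA replicate 3 was the highest mouse in 9 of these 20, against 19.5% of all genes, but in none of the 3 that were called. Ifi30, a lysosomal thiol reductase that unfolds antigens, was at 7.13, 7.10, 7.37, 7.54 and 7.08 in CBA mice and at 9.01, 8.65, 8.95, 9.05 and 9.09 in QSi5 mice. The strains were far apart, with a difference of 1.71 (SE 0.12, adjusted p = 5.74e-06 in limma). Isg20, an exonuclease of RNA, was at 8.70, 8.45, 8.45, 9.55 and 9.19 in CBA mice and at 10.18, 9.56, 10.12, 9.78 and 10.05 in QSi5 mice, which met at 9.55 and 9.56 without overlap (1.07, SE 0.22, adjusted p = 0.0172 in limma). Tor3a, an ATPase of the endoplasmic reticulum, was at 6.21, 6.18, 6.46, 6.73 and 7.04 in CBA mice and at 5.72, 5.61, 5.75, 5.14 and 5.92 in QSi5 mice, and the strains differed by -0.90 (SE 0.19, adjusted p = 0.0219 in limma). The Ifi30 call held in all 23 alternatives. The Isg20 call was lost without QSi5 replicate 3 (adjusted p = 0.0568 in limma) and without QSi5 replicate 5 (adjusted p = 0.0540). Without both CBA replicate 3 and QSi5 replicate 4 neither Isg20 (adjusted p = 0.0636) nor Tor3a (adjusted p = 0.0720) was called in limma, nor was either called on the arrays of 1 type alone (adjusted p from 0.0992 to 0.325). Ifi47, a GTPase of the same family as Igtp, was at 8.42 in CBA replicate 3 and at 5.11 to 5.72 in the other mice.

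Markers of other cells were read beside these values. In CBA replicate 3 the summed unlogged intensity of 4 neutrophil genes was 428, against 102 to 117 in the other CBA mice and 98.2 to 116 in QSi5 mice. The excess lay in S100a8, at 8.48 there and 2.98 to 3.57 in the other mice, and S100a8 passed the intensity minimum only through this mouse. S100a9, which stayed below the minimum, was also highest there, at 4.17 against 3.00 to 3.58 in the other mice. The other 3 tested neutrophil genes, Csf3r, Mpo and Elane, were lowest in that mouse. The median of 9 tested macrophage and dendritic cell markers lay 0.48 above its 10-mouse median in CBA replicate 3 and between -0.12 and 0.21 from it in the other mice. Of these 9 markers 4 were highest of all mice there, Adgre1, Csf1r, C1qb and C1qc, against 19.5% of all genes. Other tested probesets of Csf1r and C1qb were divided. For Csf1r, 1 was lowest of all mice there, at 6.16, and for C1qb, 1 was at 5.42, within the range of 5.07 to 5.83 in the other mice. The remaining tested probeset of each was highest there. The pan-leukocyte markers summed to 277 in CBA replicate 3 and 160 to 188 in the other CBA mice. In QSi5 replicate 4 they summed to 1282, against 188 to 228 in the other QSi5 mice, and Ptprc, the common leukocyte antigen, was at 8.10 there and 4.13 to 4.83 in the other QSi5 mice. QSi5 replicate 4 was the highest QSi5 mouse in 11 of 29 members (37.9%), against 19.5% of all genes. It was the highest of all 10 mice in 1 member, Ifi35, against 10.1% of all genes, and lay more than 2-fold above every other mouse in none of the 29. QSi5 replicate 4 and CBA replicate 3 had the highest and the next highest pan-leukocyte sum of the 10 mice, and the same pair, in the opposite order, had the highest immunoproteasome sums. The B cell genes Ms4a1, Cd79a, Cd79b and Pou2af1, which stayed below the minimum, were at 6.39, 5.90, 6.22 and 4.92 in QSi5 replicate 4, and the highest level of any of them in another mouse was 3.94. The 3 tested B and plasma cell markers, Jchain, Xbp1 and Sdc1, summed to 3731 there, the lowest of the QSi5 mice. The T cell genes Cd3d, Cd3g and Cd2, also below the minimum, were at 6.09, 5.11 and 4.63 there and at most 3.89 elsewhere. Cd4, Cd8a, Gzmb and Ncr1, likewise below it, were highest there by less, and Klrd1 was not highest there. The part of these cells in the members' values was not tested.

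**Figure D4:**
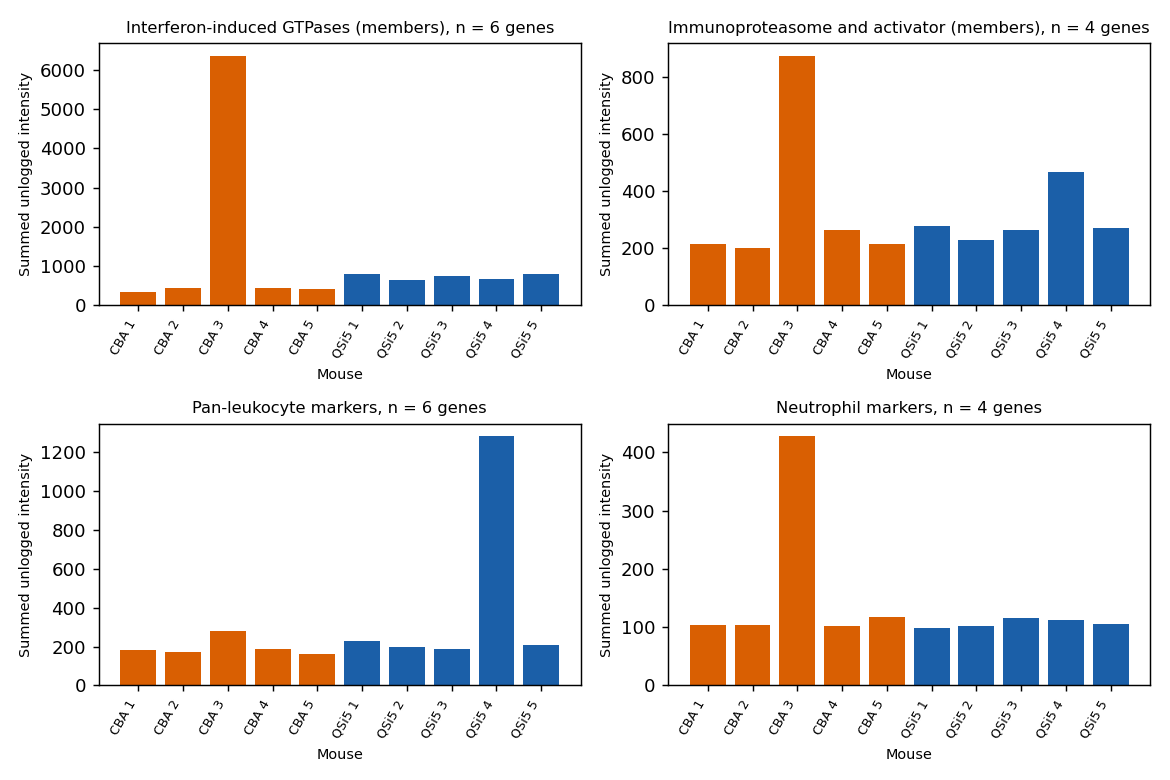
Summed unlogged intensity in each mouse of 6 GTPase members, 4 immunoproteasome members, 6 pan-leukocyte markers and 4 neutrophil markers, with CBA in orange and QSi5 in blue, each axis starting at 0. CBA replicate 3 is tallest for the GTPases (6363), the immunoproteasome (876) and the neutrophil genes (428, with the excess in S100a8), and QSi5 replicate 4 for the pan-leukocyte markers (1282).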

How the data were processed

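RNA of 10 mammary glands was measured on Affymetrix arrays, 1 per mouse. The authors made the deposited log2 intensities with RMA in the affy package, on the 22690 probesets common to both array types. RMA fits all arrays together with quantile normalization, which can compress differences at the ends of the range. No version was stated. The methods name MOE430A 2.0 for all mice, and the sample records name both types. Columns of other series numbered 0.

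Of 22626 probesets without controls, 20380 had 1 gene symbol, 691 several and 1555 none, and 20351 were matched to RefSeq by Entrez identifier. Probesets whose mean log2 intensity exceeded the log2 of 20 in at least 1 strain were kept. The strains were compared by lmFit and eBayes of limma (version 3.58.1, under R version 4.3.3) as a two-sided test, with Benjamini-Hochberg adjustment over every kept probeset. The fit was tested on simulated data. The number of arrays limits the precision.

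The members, the lists of pathway genes and markers, and the tests were chosen with earlier results of these data known. Named with values in every mouse were members with a called probeset, the 8 largest differences, and members whose strains did not overlap. So were the 4 widest ranges, the immunoproteasome, Irf1, Irf7, Irf9 and the brightest member of each role. Stat2, which lay below the minimum, was given as a range. From each pathway list the called genes and up to 2 with the largest difference were named, except Psme4 of the constitutive counterparts. Of that list Psmb5 and Psmb7 were named beside Psmb6 as catalytic subunits. Other names, such as Irgm2, Ifi47, Tapbp and S100a8, were chosen after their values were seen. Promoters came from RefSeq (GRCm38.p6). Alternatives, 23 in number, changed the minimum, scaling, array type, blocks, weights, probeset choice or mice, and the one without both CBA replicate 3 and QSi5 replicate 4 was chosen after seeing the data. Each mouse was left out in turn, but results without CBA replicate 3 were singled out after its values were seen. Some T and NK, B and plasma cell, macrophage and dendritic cell, and luminal markers are described above. The sums of these lists in each strain are in the closing section. The endothelial, adipocyte, myoepithelial and fibroblast lists are described only there.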

Additional observations from a re-analysis of the deposited data

Results flagged for a closer look

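Within groups of 5 mice, the gap between the most extreme mouse and its neighbour exceeded 0.71 of the group's range, Dixon's 95% critical value, for 20 of the named or member genes and strains. Chance gives this in about 1 in 20 groups; among all 7361 genes it was seen in 6.09% within CBA and 8.16% within QSi5. Among the 29 members it was seen in 14 within CBA, each time with CBA replicate 3 as the highest mouse. The 14 include Gbp3, which passed the intensity minimum only through that mouse. The ratio was 0.893 for Gbp2, 0.908 for Gbp3, 0.865 for Igtp, 0.897 for Iigp1, 0.855 for Irgm1 and 0.882 for Irgm2. It was 0.809 for Psmb8, 0.786 for Psmb9 and 0.851 for Psmb10 of the immunoproteasome. For Oas1a it was 0.888, for Bst2 0.745, for Cxcl9 0.762, for Rtp4 0.741 and for Lgals3bp 0.719. The pathway gene Tbk1 gave 0.889 in the same mouse, at 6.98.

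Within QSi5 the ratio was 0.732 for Psme1, where replicate 4 was highest. Replicate 2 was the highest for Mx2 (0.971, at 5.61) and Usp18 (0.750, at 4.44) and the lowest for Psmb6 (0.805, at 7.45) and Sting1 (0.809, at 6.13). No explanation was weighed for these mice.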

How the results depend on the processing

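Of the 23 alternatives, 13 moved the count of called members. With all mice 1 member gene and 2 member probesets were called. The counts of genes and probesets were 0 and 0 with no intensity minimum, 0 and 1 with median centring, and 0 and 0 on the MOE430A 2.0 arrays alone. They were 1 and 1 with the replicate block and without probesets with the suffix _x_at or _s_at. Leaving out 1 mouse gave 0 to 2 member genes and 0 to 3 member probesets. Leaving out both CBA replicate 3 and QSi5 replicate 4 gave 2 member genes and 1 called pathway gene in place of 3, and the MOE430A 2.0 arrays alone also gave 1 pathway gene and a median member difference of -0.66 in place of -0.19. Of all probesets 336 were called, against 149 on the MOE430 2.0 arrays alone, 64 on the MOE430A 2.0 arrays alone and 220 to 414 with 1 mouse left out.

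Plscr1 kept its direction in all 23 alternatives, from -1.52 to -0.99, and its call in 9. Iigp1 was called on the MOE430 2.0 arrays alone (1.48), without CBA replicate 3 (1.32), and without that mouse and QSi5 replicate 4 (1.37). Directions turned as follows, none with a call. On the MOE430 2.0 arrays alone Ifih1 was 0.14, Gbp2 0.11, Igtp 0.12, Psmb9 0.10 and Psmb10 0.32. On the MOE430A 2.0 arrays alone Irf1 was -0.58, Irf7 -0.12, Irf9 0.041, Iigp1 -1.06, Psmb8 -0.72 and Psme1 -0.17. Array weights gave 0.039 for Psmb10. Without CBA replicate 3 and QSi5 replicate 4 Ifih1 was 0.12, Gbp2 0.08, Gbp3 0.020, Igtp 0.20 and Psmb10 0.08. With 1 mouse left out at a time, Psmb8 ranged from -0.12 to 0.56, Irf1 from -0.089 to 0.32, Ifih1 from -0.25 to 0.09, Gbp2 from -1.06 to 0.084, Gbp3 from -1.02 to 0.01, Igtp from -0.81 to 0.25 and Psmb10 from -0.29 to 0.20. These 4-array and 6-array fits have fewer samples; otherwise the cause was not tested.

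Same-numbered mice of the strains correlated at -0.25, 0.29, -0.37, 0.06 and 0.02 in their deviations. These values cannot tell whether mice of the same number were handled as pairs. With the replicate block 260 probesets were called, with 1 member gene and 3 pathway genes among the genes.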

Other observations

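Of all 7361 genes, 45 lay more than 2-fold above every other mouse in CBA replicate 3, 34 did so in QSi5 replicate 4 and 25 in CBA replicate 1, and 13, 0 and 0 of these were members. Outside the set, its pathway and the marker lists the number was 26 in CBA replicate 3 and 27 in QSi5 replicate 4. The 26 included Chil1 (a chitinase-like protein, 4.03 above the next mouse on the log2 scale), the serum amyloid A genes Saa3 (3.86) and Saa2 (3.64), the acute phase gene Orm1 (2.04), the complement gene Cfb (2.14) and the chemokine gene Ccl8 (2.44). The 34 genes of QSi5 replicate 4 held 6 markers and 1 pathway gene, the chemokine gene Ccl5 (2.09 above the next mouse). These are values with no test.

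The marker lists other than the neutrophil and pan-leukocyte lists were read as summed unlogged intensity of their tested genes. The 5 of 14 T and NK cell markers tested summed to 234 to 269 in CBA mice and 241 to 411 in QSi5 mice, highest in QSi5 replicate 4. The 3 of 8 B and plasma cell markers summed to 2883 to 4532 in CBA and 3731 to 3981 in QSi5 mice, and this sum rests mainly on Xbp1, which secretory cells also express. The 9 of 15 macrophage and dendritic cell markers summed to 717 to 3219 in CBA and 850 to 1192 in QSi5 mice, highest in CBA replicate 1, where Cd14 alone was at 11.41 and the median marker lay -0.02 from its 10-mouse median. Of these markers 1, the complement gene C1qa, was called higher in QSi5 mice (1.22, SE 0.22, adjusted p = 0.00913 in limma). Endothelial markers summed to 109 to 138 in CBA and 88.8 to 126 in QSi5 mice, adipocyte markers to 802 to 1895 and 622 to 984, myoepithelial markers to 1644 to 3324 and 1321 to 3274, and fibroblast markers to 618 to 1328 and 482 to 1454. Luminal secretory genes summed to 59657 to 64556 in CBA mice, lowest in replicate 3, and to 63596 to 67498 in QSi5 mice, and 1 of 8, the keratin gene Krt8, was called lower in QSi5 mice (-0.83, SE 0.16, adjusted p = 0.0161 in limma).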
